A study of Mus musculus with 8 samples.

Results

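The core genes of the Polycomb repressive complexes were examined in RNA-seq of monocytic and granulocytic myeloid cells sorted from mouse spleen. The 10 genes are Ezh1, Ezh2, Eed, Suz12 and Jarid2 of Polycomb repressive complex 2 (PRC2) and Rnf2, Bmi1, Ring1, Cbx7 and Cbx2 of Polycomb repressive complex 1 (PRC1), chosen by name as rows of the deposited table, and all 10 were found among its 23084 genes. The 8 samples form 4 groups of 2, which are CD11b+Ly6C+ (monocytic) and CD11b+Ly6G+ (granulocytic) cells from wt mice and from Lmna KO mice, all of the C57BL/6 strain and 6 to 8 weeks old. In the Lmna KO mice a floxed Lmna gene, which encodes lamin A/C, was deleted by Cre driven from the LysM (Lyz2) locus, so that deletion depends on LysM expression and is directed to the myeloid lineage. The subset was taken from the sample titles, since the cell-marker label gives CD11b+Ly6C+ for every sample. Nothing in the labels says whether animals were pooled for a sample.

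Polycomb complexes keep developmental genes silent through marks on histones. PRC2 methylates lysine 27 of histone H3 through its catalytic subunit, EZH1 or EZH2, which works only together with EED and SUZ12. PRC1 attaches ubiquitin to histone H2A through RING1 or RNF2 paired with a PCGF protein such as BMI1, and in its canonical form it carries a CBX protein whose chromodomain reads the methylated lysine. In blood, BMI1 is known for the self-renewal of stem cells, and EZH2 is known to be higher in dividing cells while EZH1 persists in resting ones.

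The values described are the authors' mean signal per gene, which is read counts divided by a size factor for each library and averaged over libraries. This average was taken to cover wt and Lmna KO cells and both subsets, because it spans as many libraries as there are samples. The sources do not name the libraries averaged. The average therefore gives a level for the sorted myeloid cells as a whole and says nothing of a difference between genotypes or subsets. Fold changes and p-values in the same table are the authors' own comparison and were not used, and no value per sample was analysed, so neither a spread between replicates nor a test accompanies any level here. The lowest values of the table settle how many libraries were averaged. In the lowest range, all 62 distinct values that more than 1 gene shared are sums of whole reads from 8 libraries. Values found for 1 gene only were left out. Each of the 62 sums expected there is present, where only sums of reads from more than 1 library were tried. The number of libraries equals the number of samples. The size factors behind these steps run from 0.796 to 1.91 with a median of 0.976, and the second highest is 1.05, so that the size factor of 1 library stands apart from the others. A size factor reflects both depth and the make-up of the RNA, and their parts in it were not tested. The total number of reads behind a mean can therefore be bounded although the reads of each sample are unknown.

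Marker genes of the myeloid lineage were high in the averaged cells, and markers of other cells were present beside them. All 6 genes of the monocyte list (706 for Cx3cr1 to 54060 for Itgam) had a mean signal above the 75th percentile. Itgam encodes CD11b, on which both subsets were sorted, so it does not mark monocytes alone. The next highest of this list was Csf1r with 22159. All 7 neutrophil markers (1692 for Elane to 725556 for S100a9) were above the 75th percentile too. The 5 B-cell markers had mean signals of 4141 to 5923 and the 5 T-cell markers 288 to 759. The 5 macrophage markers had 295 to 20903 and the 4 erythroid markers 55.1 to 4661. Of these, 5 B-cell, 1 T-cell, 4 macrophage and 2 erythroid markers also lay above the 75th percentile. This limit therefore does not set the myeloid lists apart from the B-cell list. Proliferation markers ran from 433 for Cdk1 to 5133 for Mki67, and 3 of the 5 lay above the 75th percentile. The part of these cells in the levels of the Polycomb genes was not tested, and in bulk RNA fewer cells of a type cannot be told apart from less RNA per cell. Lmna itself had a mean signal of 79.5 over the 8 libraries, at percentile 53.8 of the listed genes.

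The Polycomb genes were expressed at intermediate to high levels, with one exception. Their mean signal ran from 51.8 for Cbx2 to 1791 for Ezh1, a range of 34.6-fold, and the median over the 10 genes was 1190, where the median of all listed genes was 46.8. All 10 lay above the median of the listed genes, 6 lay above the 75th percentile and 0 above the 90th. The median percentile of the 10 genes was 83.5 among all listed genes.

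**Figure D1:**
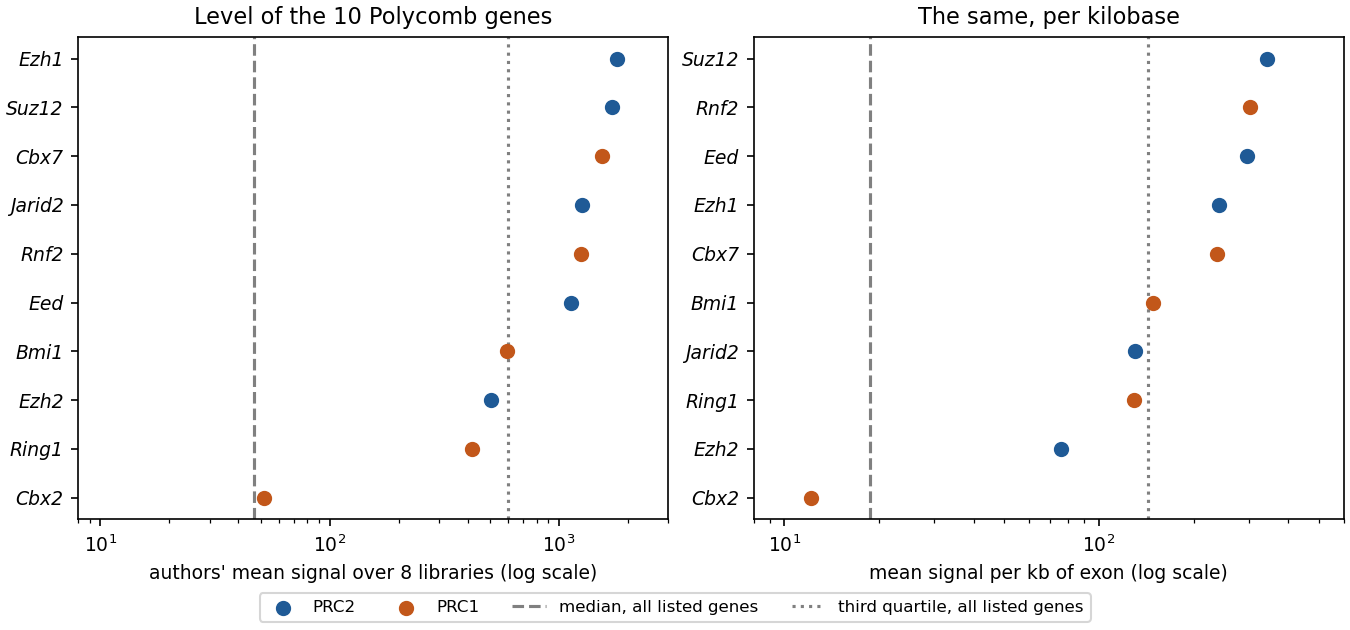
Left, the authors' mean signal over 8 libraries for each of the 10 Polycomb genes, and right, the same divided by the kilobases of annotated exon, both on log axes with PRC2 genes in blue and PRC1 genes in orange. Vertical lines give the median (46.8 and 18.8 per kb) and the third quartile (599 and 143 per kb) of all listed genes, and Cbx2 stands apart from the other genes at 51.8 and 12.2 per kb.

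Values given as mean signal, and the percentiles above, are not divided by length. Longer transcripts give more reads, so the Polycomb genes were also compared after division by the length of all annotated exons of a gene, merged (signal per kb). On this scale Suz12 was highest of the 10 at 343 per kb and Cbx2 lowest at 12.2 per kb, a range of 28.2-fold that shrank to 4.53-fold without Cbx2. The median over the 10 genes was 193 per kb, and that over all listed genes was 18.8 per kb. Cbx2 was the lowest of the 10 by every length tried, whereas the gene in first place changed with the length (Suz12, Eed, Cbx7 or Ezh1). In the order per kb (Suz12, Rnf2, Eed, Ezh1, Cbx7, Bmi1, Jarid2, Ring1, Ezh2, Cbx2), 6 of the 9 neighbouring pairs differed beyond counting error. For the other 3 pairs the 95% counting interval of the ratio held 1, with ratios of 1.02 for Rnf2 over Eed (0.986 to 1.05), 1.01 for Ezh1 over Cbx7 (0.986 to 1.04) and 1.01 for Jarid2 over Ring1 (0.967 to 1.06). These intervals, like those below, cover counting error only and leave out the spread between libraries, which is unknown. They also leave out the choice of length, with which some of the 6 pairs changed order. Rnf2 was above Suz12 per kb of the longest coding sequence (1235 and 764). Ezh2 was above Ring1 per kb of the longest transcript (182 and 163). Per kb of all exons, the widest step was from Ezh2 down to Cbx2, which was 6.23-fold (5.56 to 6.97).

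Of the 4 catalytic and scaffold genes of PRC2, Ezh2 was the lowest by every length tried. Suz12 (ENSMUSG00000017548), the scaffold subunit (mm10 chromosome 11, 79993106 to 80034123, plus strand), had a mean signal of 1698, from 10818 to 25992 reads in all. Eed (ENSMUSG00000030619), which binds methylated lysine 27 and activates the enzyme (chromosome 7, 89954654 to 89980983, minus strand), had a mean signal of 1135, or 296 per kb. Ezh1 (ENSMUSG00000006920) (chromosome 11, 101191115 to 101226463, minus strand) had a mean signal of 1791, or 241 per kb. Ezh2 (ENSMUSG00000029687) (chromosome 6, 47530139 to 47595341, minus strand) had a mean signal of 506, or 75.8 per kb, and 3226 to 7749 reads stood behind it. Among all listed genes per kb, Suz12 was at percentile 86.4, Eed at 84.6, Ezh1 at 82.1 and Ezh2 at 66.1.

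The level of Ezh1 was 3.18 times that of Ezh2 per kb (95% counting interval 3.05 to 3.30). With other gene lengths the ratio ran from 2.34 to 3.54, so Ezh1 was higher under each of them. Ezh1 made up 76.1% of the summed level of the pair. That sum was 317 per kb, 0.922 times the level of Suz12 and 1.07 times that of Eed, but the first ratio was above 1 with each of the other lengths, so the order of the enzymes together and Suz12 depends on the length used.

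Promoters of the Polycomb genes are rich in CpG, the dinucleotide that marks CpG islands. RefSeq promoter windows of GRCm38.p6 (the assembly of mm10), reaching from 250 bases before to 50 bases after a start site, were found for 9 of the 10 genes (all but Cbx2), with 2 windows for Jarid2. All 10 windows had a ratio of observed to expected CpG of at least 0.6, from 0.708 for Bmi1 to 1.09 for Suz12. This limit was reached by 35.8% of all 32851 windows and 58.7% of those of listed genes. Of 37 windows of the other genes of the wider list below (other Polycomb genes and opposing enzymes), 29 (78.4%) reached it. The windows of Ezh1, Ezh2 and Suz12 are shown because they belong to the paired enzymes and to the member with the highest ratio. CpG dinucleotides are in capitals, at chr11:101226414-101226713 on the minus strand for Ezh1, chr6:47594981-47595280 on the minus strand for Ezh2 and chr11:79992856-79993155 on the plus strand for Suz12, each written 5′ to 3′ along its gene.
Ezh1: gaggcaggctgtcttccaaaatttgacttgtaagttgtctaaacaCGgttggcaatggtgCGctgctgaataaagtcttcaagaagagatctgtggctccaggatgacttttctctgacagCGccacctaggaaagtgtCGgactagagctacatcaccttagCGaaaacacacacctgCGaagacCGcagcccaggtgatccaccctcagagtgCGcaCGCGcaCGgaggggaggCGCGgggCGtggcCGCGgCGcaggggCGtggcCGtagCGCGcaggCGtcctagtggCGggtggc
Ezh2: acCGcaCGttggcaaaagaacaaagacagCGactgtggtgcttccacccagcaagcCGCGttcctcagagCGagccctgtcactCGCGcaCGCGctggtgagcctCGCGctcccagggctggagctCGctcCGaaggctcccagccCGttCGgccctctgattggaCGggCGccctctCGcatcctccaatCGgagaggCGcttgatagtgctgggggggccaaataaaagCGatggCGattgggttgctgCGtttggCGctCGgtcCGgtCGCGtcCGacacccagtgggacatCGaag
Suz12: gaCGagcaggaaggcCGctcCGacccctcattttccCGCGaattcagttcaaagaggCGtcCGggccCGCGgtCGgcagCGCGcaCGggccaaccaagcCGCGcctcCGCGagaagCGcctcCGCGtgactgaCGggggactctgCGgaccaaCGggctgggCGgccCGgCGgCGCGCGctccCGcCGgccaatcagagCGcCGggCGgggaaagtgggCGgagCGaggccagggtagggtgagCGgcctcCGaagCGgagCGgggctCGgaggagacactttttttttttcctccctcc

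The window of Ezh1 holds 23 CpG with a ratio of 0.882. That of Ezh2 holds 31 with a ratio of 0.999 and that of Suz12 holds 41. The GC content was 59.3%, 64.3% and 71.0% in the same order. Ezh2, the lower of both enzyme genes by level, thus had the window with more CpG.

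**Figure D2:**
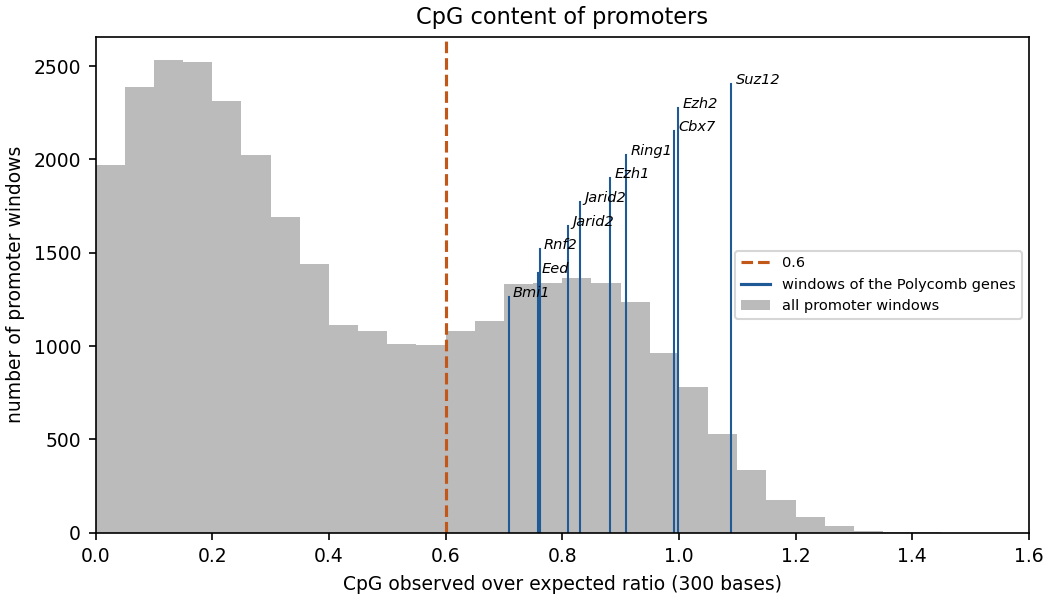
Number of RefSeq promoter windows (300 bases) by ratio of observed to expected CpG, with the windows of 9 Polycomb genes as blue lines whose height only spaces the names, and the limit of 0.6 as a dashed line. All 10 lines lie to the right of the limit, from 0.708 for Bmi1 to 1.09 for Suz12, in the upper of the peaks formed by all windows.

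Letters of binding motifs were searched in these windows on both strands. For E2F, the family of cell cycle factors, the letters TTTGGCGC, TTTGCCGC, TTTCGCGC and TTTCCCGC were used. At least 1 of these strings is held by 2.26% of all windows and 3.44% of those of listed genes. They occur in the windows of Ezh2, as TTTGGCGC from position 4, and of Suz12, as TTTCCCGC from position -219, counted from the start. The window of Ezh1 holds none of them. CCAAT or its complement was found in 6 of the 10 windows, those of Cbx7, Eed, Ezh2, Suz12 and both of Jarid2. It was in 37.4% of all windows and 37.0% of those of listed genes. CCGGAAGT, an extended form of the letters bound by ETS factors, was in 0 of the 10 windows. It was in 3.89% of all windows and 6.44% of those of listed genes. Shorter forms of these letters were not searched. A match describes the letters and not a bound site.

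Accessory subunits direct PRC2 to its sites. Jarid2 (ENSMUSG00000038518), which joins PRC2 together with AEBP2 (chromosome 13, 44729474 to 44921643, plus strand), had a mean signal of 1263, or 130 per kb over 9.71 kb of exon. Its partner Aebp2 had 111 per kb. Phf1, which brings PRC2 to chromatin through its Tudor domain, was the highest of the 7 accessory genes at 826 per kb, while its paralogs Mtf2 and Phf19 had 137 and 28.0 per kb. Lcor had 85.5 per kb, and Epop, listed under an older symbol, was the lowest of the 7 with 22.5 per kb. The histone-binding subunits Rbbp4 and Rbbp7, which PRC2 shares with other complexes, had 327 and 492 per kb.

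In PRC1, the gene of 1 ubiquitin ligase was higher than that of the other. Rnf2 (ENSMUSG00000026484), which encodes RING1B (chromosome 1, 151458004 to 151500955, minus strand), had a mean signal of 1245, or 302 per kb. Ring1 (ENSMUSG00000024325), which encodes RING1A (chromosome 17, 34020792 to 34024680, minus strand), had a mean signal of 417, or 129 per kb. The level of Rnf2 was 2.35 times that of Ring1 per kb (95% counting interval 2.25 to 2.45), and 3.61 times with the coding sequence as the length. 

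Bmi1 (ENSMUSG00000026739), the PCGF protein that stimulates the ligase in canonical PRC1 (chromosome 2, 18677018 to 18686629, plus strand), was the highest of its family per kb of exon. It had a mean signal of 593, or 149 per kb, out of 298 per kb summed over the 6 PCGF genes, and its share of that sum was 34.0% with the coding sequence as the length. Its closest relative in canonical PRC1, Pcgf2 (MEL18), was lowest of the 6 with a mean signal of 10.5, or 2.97 per kb, and Bmi1 was 50.2 times higher per kb (95% counting interval 39.4 to 63.9). The PCGF genes of variant PRC1 lay in between, with 61.0 per kb for Pcgf1, 43.9 for Pcgf3, 23.1 for Pcgf5 and 18.2 for Pcgf6. Rybp and Yaf2, which take the place of CBX proteins in variant PRC1, had 519 and 377 per kb, and Auts2, known as a partner of PCGF3 and PCGF5, had a mean signal of 1.74 with 12 to 26 reads behind it. Bcor and Kdm2b, which join PCGF1, had 176 and 57.6 per kb, and L3mbtl2, a partner of PCGF6, had 66.5 per kb.

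The CBX genes spanned a wide range, and Cbx2 was at its lower end. Cbx7 (ENSMUSG00000053411), a reader of the methylated lysine (chromosome 15, 79915807 to 79971119, minus strand), had a mean signal of 1542, or 238 per kb. Cbx2 (ENSMUSG00000025577), another such reader, known for its compaction of chromatin (chromosome 11, 119022962 to 119031270, plus strand), had a mean signal of 51.8 with 331 to 793 reads behind it. Cbx7 was 19.5 times as high as Cbx2 per kb (95% counting interval 17.5 to 21.8), and 61.5 times with the coding sequence as the length. Cbx8 had 80.6 per kb and Cbx6 had 35.3 per kb, so that Cbx2, at 12.2 per kb, was the lowest of the 4 CBX genes described.

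Cbx2 and Cbx8 are neighbours on chromosome 11. They lie on opposite strands with their 3′ ends facing each other, 5.03 kb apart. Cbx8 was 6.62 times as high as its neighbour per kb (95% counting interval 5.89 to 7.44). Suz12 and Ezh1 are also on chromosome 11, and the 10 genes are spread over 8 chromosomes.

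The Polyhomeotic proteins, which let PRC1 complexes assemble into chains, also had 1 leading member. Phc2 had 203 per kb (54.8% of the sum of 3), Phc3 114 and Phc1 53.4, and the related Scmh1 had 30.7 per kb.

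Enzymes that act against the Polycomb marks, taken with cofactors, ranged from 76.1 to 1201 per kb. Of these 6 genes, 4 were above the 75th percentile of all listed genes per kb. Together with the core genes and their partners they make up a wider list of 41 genes. Kdm6b, a demethylase of lysine 27 of histone H3, had a mean signal of 8354, or 1201 per kb, the highest of the list, against 150 per kb for its paralog Kdm6a. Kdm6b had 3.79 times the summed level of Ezh1 and Ezh2 per kb of all exons, and other lengths were not tried for this ratio. Bap1 and its cofactors Asxl1 and Asxl2, which remove ubiquitin from histone H2A, had 311, 776 and 92.7 per kb, and Usp16, another deubiquitinase, had 76.1 per kb. Of the 31 genes of the list that are not among the 10, 11 were above the 75th percentile of all listed genes per kb and the median was 85.5 per kb, where 6 of the 10 core genes were above it with a median of 193 per kb.

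**Figure D3:**
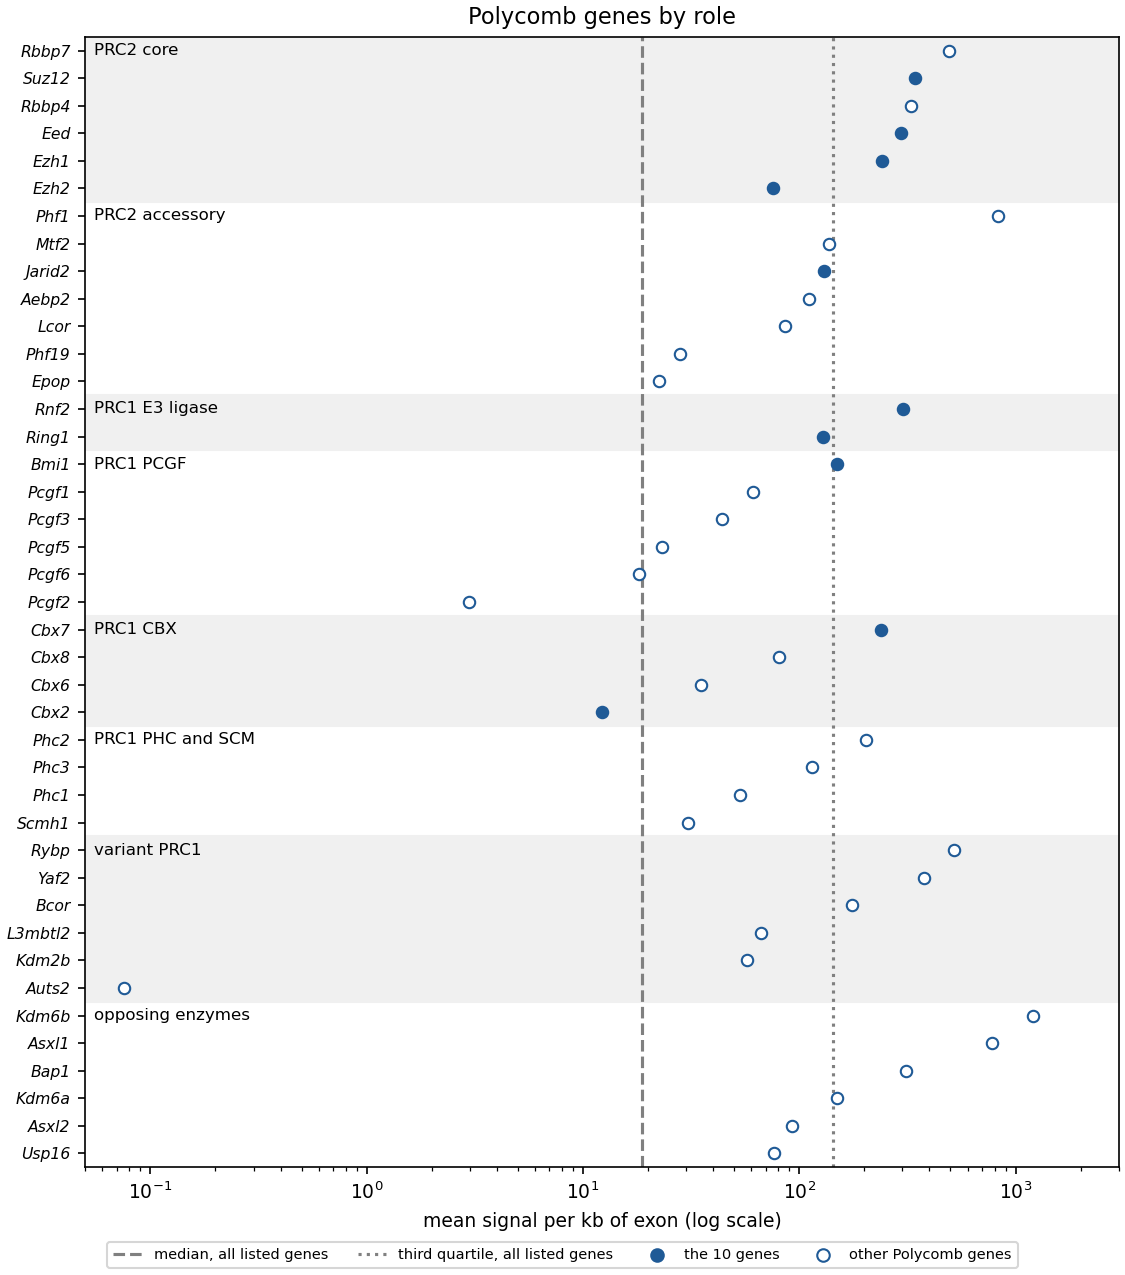
Mean signal per kb of annotated exon (log axis) for the 41 genes of the wider Polycomb list, in blocks by role, with the 10 core genes as filled and the others as open circles. Dashed and dotted lines give the median (18.8) and the third quartile (143) of all listed genes, and Kdm6b (1201) and Auts2 (0.0759) mark both ends of the list.

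Reads that could belong to other genes touch 6 of the 10 members. Exons of 5 members overlap exons of a gene on the opposite strand, and the sources used here do not say whether counting used the strand. The overlap takes 6.82% of the exon bases of Eed (with E230029C05Rik, mean signal 180), 3.83% of Rnf2 (with Trmt1l, 884), 3.60% of Suz12 (with Gm26563, 7.47), 2.61% of Ezh2 (with Gm26625, 1.26) and 1.54% of Cbx7 (with Apobec3, 3103). Bmi1 has a pseudogene on chromosome X, Gm5946, which matches its transcript at 97.0% identity over 2658 bases and had a mean signal of 0.810. Commd3, the neighbour that ends 786 bases before Bmi1 on the same strand, had a mean signal of 576. No other transcript matched a member at 90% identity or more over at least 200 bases.

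Most Hox genes, the classical targets of Polycomb silencing, were low or without a row. Of 39 Hox genes, 19 had a row in the table (48.7%), where 71.3% of the annotated protein-coding genes had one. By cluster these were 9 of 11 Hoxa genes, 7 of 10 Hoxb genes, 3 of 9 Hoxc genes and 0 of 9 Hoxd genes. Only Hoxb4 and Hoxb3, both known from blood stem cells, had a mean signal of at least 10 (10.5% of the listed Hox genes, where 78.1% of listed protein-coding genes reached it). They had 123 (48.1 per kb) and 52.5 (12.4 per kb). Both lay above the median mean signal of all listed genes, 46.8, and per kb Hoxb4 lay above the median of 18.8 and Hoxb3 below it. The other 17 ran from 0.250 to 7.73, and for 11 of them the total number of reads over all 8 libraries could be recovered from the steps, which was 2 to 9. Hoxa7 had a mean signal of 7.73 and Hoxa9, a factor of myeloid progenitors, had 5.78, while Hoxa10 rested on 5 reads. Hoxc6, the highest of the Hoxc genes, had 0.984 from 8 reads. A gene without a row was not measured as 0.

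**Figure D4:**
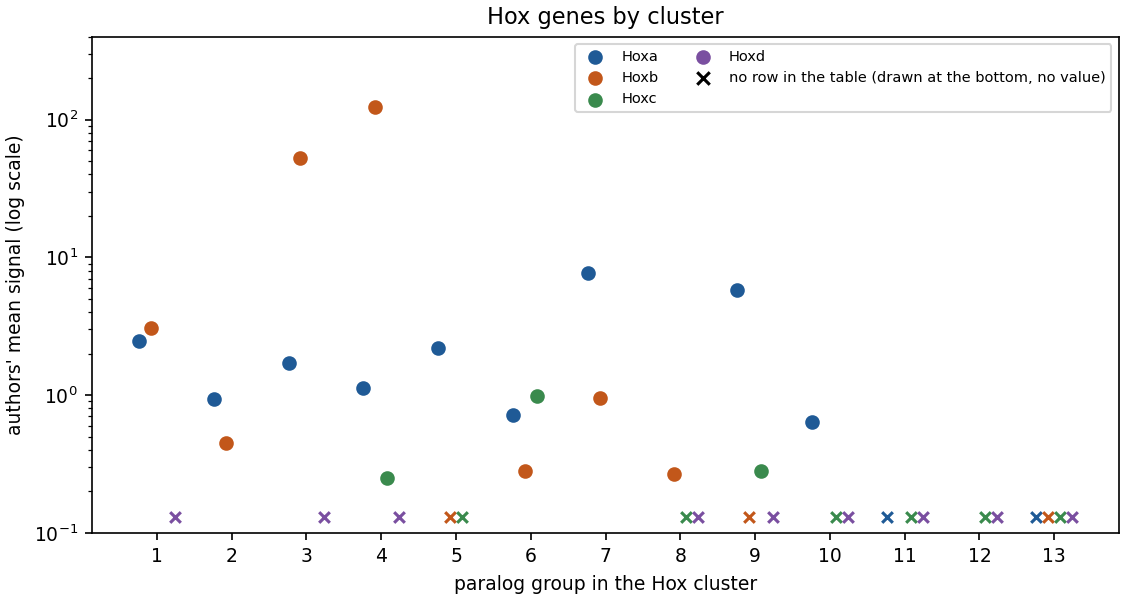
The authors' mean signal (log axis) of the Hox genes by paralog group, with clusters in colour. Crosses at the bottom stand for the 20 genes without a row and carry no value, and Hoxb4 (123) and Hoxb3 (52.5) lie above the other 17 listed genes.

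The Ink4 genes Cdkn2a, Cdkn2b and Cdkn2c, the only ones of their family examined, differed in level. Cdkn2a and Cdkn2b, cell cycle inhibitors that BMI1 is known to hold down, had a mean signal of 11.9 and 8.58, or 10.2 and 6.17 per kb, both below the median of all listed genes. Cdkn2c, a related inhibitor at another site on chromosome 4, had a mean signal of 303, or 113 per kb.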

How the data were processed

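RNA was sequenced from 8 samples in 4 groups of 2. The authors trimmed reads with Cutadapt (version 1.14), mapped them to mm10 with STAR (version 2.5.2b), quantified genes with RSEM (version 1.3.0) and GENCODE M12, and ran DESeq2 (version 1.20.0). From the 1 table analysed, the mean signal per gene was used, which the authors made by averaging counts divided by size factors. The table also holds log2 fold changes, their standard errors, test statistics and p-values of the authors' comparison, which were not used, so no test was run. Members, lists and alternatives were chosen with earlier results of these data known.

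The number of libraries averaged was solved from the lowest values (tolerance 3e-08) and the method was tested on simulated counts. Reads behind a mean were bounded by the largest and smallest step (0.157 and 0.0653 for 1 read), and 95% intervals of ratios are log-normal with Poisson errors from the lower bound. Lengths, positions and gene types came from GENCODE M21 of the same build, in which 23004 of 23084 identifiers were found. For 28 symbols on more than 1 row, the row with the highest mean was used. Transcripts were compared with blastn 2.17.0 (at least 90% identity over 200 bases), with Python 3.11.15 and pandas 2.3.3 for the rest. Named genes were the 10 members, the wider Polycomb list, the genes overlapping members, Hoxa7, Hoxa9, Hoxa10 and the highest Hox genes, Cdkn2a, Cdkn2b, Cdkn2c, Lmna and the marker lists. Of the planned list, 1 gene is not reported here. Hoxb3, Gm5946 and Commd3 were named after their values were seen. Alternatives were other gene lengths, other sets of genes to rank against and a shorter promoter window.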

Additional observations from a re-analysis of the deposited data

How the results depend on the processing

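No paired analysis was possible because only a mean over all libraries was analysed, with no value per sample. For the same reason no replicate could be left out, and the stability of the levels against single libraries is unknown. The median percentile of the 10 genes was 76.1 among protein-coding genes only, 73.3 among genes with a mean signal of at least 10, and 78.7 when ranked per kb, the last chosen after seeing the data, and 9 of the 10 stayed in the upper part in each, all but Cbx2. Divided by the longest transcript, the log2 ratio of Ezh2 over Ezh1 was -1.23, and it was -1.82 with the longest coding sequence and -1.82 without division by length. The log2 ratio of Rnf2 over Ring1 was 1.85 with the coding sequence and 1.58 without division, and that of Cbx7 over Cbx2 was 5.94 and 4.89. The log2 ratio of summed Ezh1 and Ezh2 over Suz12, -0.12 per kb of all exons, turned to 0.645 with the longest transcript, 0.420 with the coding sequence and 0.436 without division, alternatives chosen after seeing the data. With 250 bases before the start only, 9 of 9 genes still reached the CpG ratio of 0.6. Counting error is small for the 10 genes (331 reads or more), and the spread between libraries was not analysed here.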
